A study of Homo sapiens with 6 samples.

Results

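The 9 enzymes described here make serine from a glycolytic intermediate and pass its carbon to folate: PHGDH, PSAT1 and PSPH of serine synthesis, SHMT1 and MTHFD1 of the cytosolic folate pathway, and SHMT2, MTHFD2, MTHFD1L and ALDH1L2 of the mitochondrial folate pathway. They were found by symbol among the 58735 gene rows of the deposited count table, and all 9 had a row. The cells were Ovcar8, an established human line of high-grade serous ovarian cancer. They were grown in RPMI-1640 with 5% FBS (fetal bovine serum) and then held for 48 h either with 5% FBS or with no serum, with 3 RNA libraries in each group. No drug, genetic change or other agent is named for either group, and both groups come from the same line. Nothing in the labels says that replicates are separate cultures. The p-values therefore reflect only how far these 6 libraries scatter, which may be technical, and in such bulk RNA fewer cells of a kind and less RNA per cell cannot be told apart.

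Serine synthesis runs in the cytosol. PHGDH oxidises 3-phosphoglycerate, PSAT1 transfers an amino group from glutamate, and PSPH removes the phosphate. A serine hydroxymethyltransferase, SHMT1 in the cytosol or SHMT2 in mitochondria, then splits serine into glycine and a carbon unit carried by tetrahydrofolate. In mitochondria that unit is oxidised by MTHFD2 and released as formate by MTHFD1L, or oxidised to carbon dioxide by ALDH1L2, and in the cytosol MTHFD1 takes formate up again for purine, thymidylate and methionine synthesis. Several of these genes, PHGDH, PSAT1, SHMT2 and MTHFD2 among them, are known targets of the transcription factor ATF4. RPMI-1640 medium contains serine, glycine and folic acid.

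Serum withdrawal was not accompanied by a detectable change in any of the 9 transcripts. All 9 passed the filter on low counts. Tested with edgeR (quasi-likelihood, p-values adjusted over all 13772 genes by Benjamini-Hochberg), 0 of the 9 passed an adjusted p of 0.05, where 0.283% of all genes did, 0.24% as higher and 0.0436% as lower without serum. At an unadjusted p under 0.05 there were also 0 of 9, against 10.4% of all genes, and in DESeq2 0 of 9 passed. The 2 groups of libraries overlapped in all 9 enzymes, and did not overlap in 17.7% of all genes tested (1383 genes, or 10%, higher and 7.65% lower). Adjusted p-values of the 9 ran from 0.486 for PSPH to 0.999 for MTHFD1L. The median log2 fold change (no serum against FBS) was 0.43 over the 3 serine synthesis enzymes, 0.27 over the 2 cytosolic and -0.05 over the 4 mitochondrial folate enzymes, and -0.02 over all genes tested. On simulated counts, changes were given to genes drawn at random from those tested. Those that failed the low-count filter on the simulated counts were left out. Of the rest, the test found 24 of the 96 genes given a 2-fold change and 80 of the 93 given a 4-fold change. Of its 113 calls 9 were false. A 2-fold change was thus often missed there. The simulated counts carried no trends shared by genes within a library, and these rates are not those of the 9 enzymes.

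**Figure D1:**
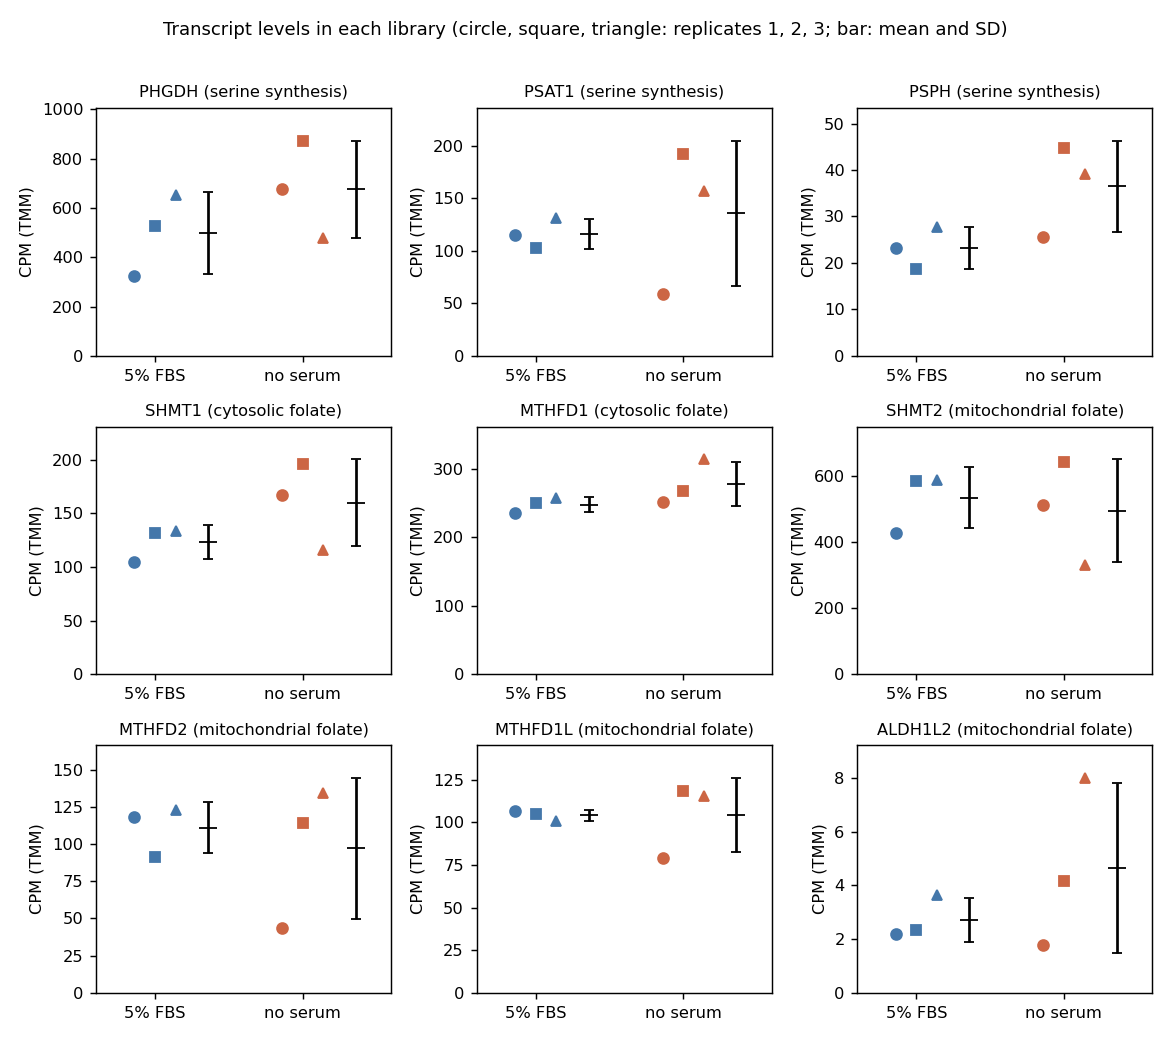
Level of each enzyme transcript in each library, in CPM (the count as parts of 1e6 of the library, scaled by the trimmed mean of M-values; y axis from 0), with FBS libraries in blue and serum-starved libraries in orange. Black bars give the mean and SD of 3 libraries. The groups overlap in all 9 panels.

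The libraries held between 16379416 and 19558484 counts. The carcinoma identity was checked on 11 markers: KRT8, KRT18, KRT7 and PAX8 were expressed (PAX8 at 59.4 to 86.1 CPM), EPCAM and WT1 were below 4 CPM in every library, KRT19 did not pass the filter on low counts, and MUC16, SOX17, CDH6 and MECOM had no count in any library. The summed level of these markers was 6981 to 11895 CPM with FBS and 8452 to 11780 CPM without serum. Of 10 markers of blood, stromal, endothelial and liver cells, CD3E, HBB and ALB were at 0, and PTPRC and CD68 were each at 0 in 5 of 6 libraries. Their summed level was 319 to 579 CPM with FBS and 767 to 834 CPM without serum, nearly all of it from the collagen gene COL1A1, which was at 318 to 577 CPM and at 762 to 831 CPM. VWF was at 0.305, 0.477 and 0.260 CPM with FBS and at 4.21, 1.32 and 2.64 CPM without serum (edgeR adjusted p = 0.134). ACTA2 was at 0.406 to 1.17 and at 1.32 to 2.58 CPM (edgeR adjusted p = 0.693). In each of the 3 tested markers all starved libraries were above all FBS libraries, as in 10% of all genes tested. None of the 3 passed, and VWF passed in DESeq2 and with no low-count filter. The part of these markers in the values below was not tested.

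The enzymes differed widely in level. Per kilobase of exon, as FPKM (fragments scaled by exon length and library size) in the deposited table, SHMT2 was the highest of the 9 with FBS at 107.9 ± 19.6 (SD, n = 3), and ALDH1L2 the lowest at 0.312 ± 0.0936. PHGDH at 53.0 ± 17.98 and PSAT1 at 51.8 ± 6.35 came next and overlapped in their libraries. MTHFD1 (25.8 ± 1.41), MTHFD2 (22.2 ± 3.32) and MTHFD1L (20.2 ± 0.505) formed a group in which neighbours overlapped. They were followed by SHMT1 at 16.5 ± 2.32 and PSPH at 8.19 ± 1.58, each apart from its neighbours. Without serum SHMT2 (99.8 ± 31.4) and PHGDH (71.5 ± 20.7) overlapped. SHMT1 (21.4 ± 5.43), MTHFD1L (20.3 ± 4.18) and MTHFD2 (19.4 ± 9.45) then stood in the reverse of their order with FBS, with neighbours overlapping. The lengths behind these values equalled the union of all annotated exons, so FPKM understates a gene whose main transcript is much shorter than that union. Those lengths were 9217 bases for PHGDH, 4838 for SHMT2 and 2188 for PSAT1. In CPM, which leaves length out, SHMT2 was at 535 ± 91.8, PHGDH at 500 ± 166 and PSAT1 at 116 ± 14.3 with FBS. Without serum PHGDH was at 676 ± 196 CPM and SHMT2 at 495 ± 156. With FBS, SHMT2 (429 to 589 CPM) and PHGDH (322 to 651 CPM) overlapped in CPM. MTHFD1, at a mean of 248 CPM with FBS, was above PSAT1 in every FBS library, the reverse of their order in FPKM. SHMT1, at a mean of 123 CPM with FBS, was above MTHFD2 at 111 and MTHFD1L at 104. That too reversed the order in FPKM, though their libraries overlapped in CPM. The distances between the enzymes in FPKM, and their order with FBS and without serum, thus depend on length.

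PHGDH, the first enzyme of serine synthesis (ENSG00000092621, chromosome 1, 119648411 to 119744226, GRCh38), was at 322, 527 and 651 CPM in FBS replicates 1, 2 and 3. It was at 675, 873 and 480 CPM in serum-starved replicates 1, 2 and 3. Starved replicates 1 and 2 were above every FBS library and starved replicate 3 was below FBS replicates 2 and 3. Its log2 fold change was 0.43 with a standard error (SE) of 0.34 (edgeR adjusted p = 0.719), and the 95% interval ran from a fold of 0.818 to 2.23. FBS replicate 1 was the lowest library by a wide margin, and without it the log2 fold change was 0.19.

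PSAT1, the aminotransferase of the next step (ENSG00000135069, chromosome 9, 78297143 to 78330093), was at 115, 102 and 131 CPM with FBS and at 58.9, 192 and 157 CPM without serum, in the order of the replicates. The starved libraries thus lay on both sides of the FBS libraries, with starved replicate 1 the lowest of the 6 and the other two the highest. Averaged over these, PSAT1 had a log2 fold change of 0.23 (SE 0.36, edgeR adjusted p = 0.877, interval 0.691- to 1.98-fold). It was 0.60 without starved replicate 1 and -0.11 without starved replicate 2.

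PSPH, the phosphatase that completes the pathway (ENSG00000146733, chromosome 7, 56011051 to 56051604), had the smallest p of the 9. It was at 23.2, 18.7 and 27.7 CPM with FBS and at 25.6, 44.7 and 39.2 CPM without serum. Starved replicates 2 and 3 exceeded all FBS libraries, while starved replicate 1 lay below FBS replicate 3. This gave a log2 fold change of 0.65 (SE 0.31, unadjusted p = 0.0522, edgeR adjusted p = 0.486, interval 0.995- to 2.49-fold). Leaving out each library gave 0.48 to 0.87, with no adjusted p under 0.254.

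SHMT1, the cytosolic hydroxymethyltransferase (ENSG00000176974, chromosome 17, 18327860 to 18363563), was at 105, 131 and 133 CPM with FBS and at 167, 196 and 116 CPM without serum. Here starved replicate 3 lay within the FBS range and the other starved libraries lay above it. SHMT1 had a log2 fold change of 0.38 (SE 0.30, edgeR adjusted p = 0.717, interval 0.842- to 2.002-fold). SMCR8, on the opposite strand and overlapping SHMT1, held 3190 counts over the 6 libraries against 14987 for SHMT1. By library these were 354, 415 and 352 counts with FBS and 383, 541 and 1145 without serum. Whether counting used strand is not given in the sources used here, so reads in the overlap cannot be assigned with certainty.

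MTHFD1, the cytosolic enzyme that joins formate to tetrahydrofolate and interconverts its carbon units (ENSG00000100714, chromosome 14, 64388031 to 64463457), was the steadiest member across the 6 libraries. It was at 236, 250 and 258 CPM with FBS (249.7 in replicate 2) and at 252, 268 and 314 CPM without serum. Starved replicate 3 stood clear of the rest, and starved replicate 1 lay inside the FBS range. For MTHFD1 the log2 fold change was 0.17 (SE 0.28, edgeR adjusted p = 0.887, interval 0.742- to 1.70-fold).

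SHMT2, the mitochondrial counterpart of SHMT1 (ENSG00000182199, chromosome 12, 57229327 to 57234935), was at 429, 586 and 589 CPM with FBS and at 512, 642 and 331 CPM without serum. Starved replicates 2 and 3 were the highest and the lowest of the 6 libraries. SHMT2 had a log2 fold change of -0.11 (SE 0.32, edgeR adjusted p = 0.937, interval 0.576- to 1.49-fold), and it was 0.11 without starved replicate 3.

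MTHFD2, the mitochondrial dehydrogenase and cyclohydrolase (ENSG00000065911, chromosome 2, 74198562 to 74217565), was at 118, 91.2 and 123 CPM with FBS and at 43.6, 114 and 134 CPM without serum. Starved replicate 1 was less than 0.5 times every other library, and the other 5 overlapped. For MTHFD2 the log2 fold change was -0.19 (SE 0.36, edgeR adjusted p = 0.9, interval 0.522- to 1.47-fold), and it was 0.18 without starved replicate 1.

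MTHFD1L, the mitochondrial formate-tetrahydrofolate ligase (ENSG00000120254, chromosome 6, 150865549 to 151101887), was at 107, 105 and 101 CPM with FBS (100.8 in replicate 3) and at 79.2, 118 and 116 CPM without serum. Its FBS libraries were the closest together of all 9 enzymes, the highest being 1.06 times the lowest. Its log2 fold change was 0.0032 (SE 0.28, edgeR adjusted p = 0.999), with an interval of 0.664- to 1.51-fold.

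ALDH1L2, the mitochondrial 10-formyltetrahydrofolate dehydrogenase (ENSG00000136010, chromosome 12, 105019784 to 105084577), was the scarcest, with 43, 39 and 56 counts with FBS and 26, 76 and 182 without serum. That corresponded to 2.18, 2.32 and 3.64 CPM with FBS and to 1.77, 4.17 and 8.01 CPM without. Starved replicate 1 was the lowest and starved replicate 3 the highest of the 6. A log2 fold change of 0.79 was the largest of the 9 and had the largest error (SE 0.54, edgeR adjusted p = 0.651, interval 0.789- to 3.77-fold). Without starved replicate 3 it was 0.14. C12orf45, which overlaps ALDH1L2 on the opposite strand, held 876 counts, more than the 422 of ALDH1L2, and the limit named for SHMT1 holds here too. By library C12orf45 held 205, 145 and 100 counts with FBS and 90, 89 and 247 without serum. Sharing of reads was not tested.

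**Figure D2:**
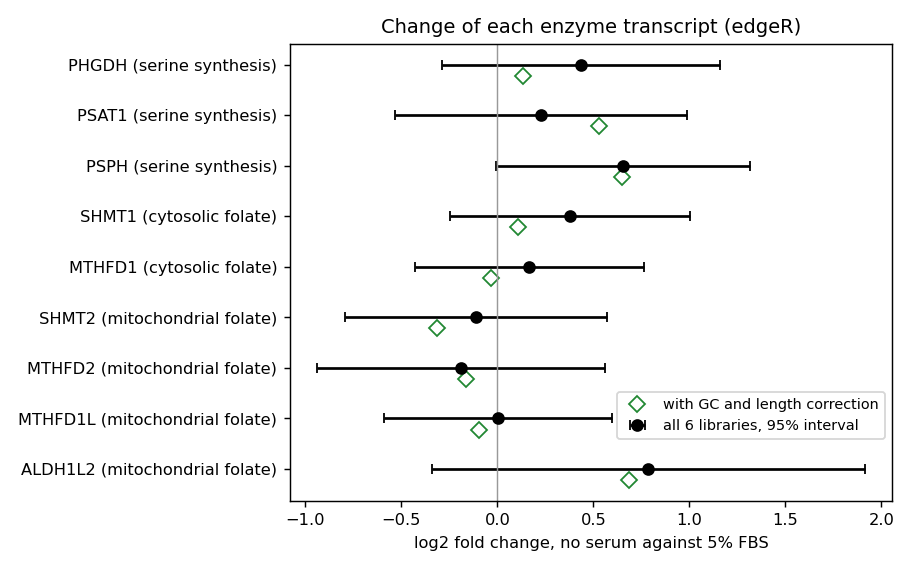
Log2 fold change of each enzyme (x axis, no serum against 5% FBS) from edgeR with its 95% interval in black, and the value after each library was corrected for transcript GC and gene length as open green diamonds. All 9 intervals include 0, PSPH by the least.

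Near-identical copies took few reads. Of 14 rows named as pseudogenes of a member, 2 held any count, 3 in all over the 6 libraries. This shows where the counted reads went, and reads discarded as ambiguous would not appear in it. Besides SMCR8 and C12orf45, the overlapping genes with over 20 counts were ZBTB25 at MTHFD1 (327 counts) and NDUFA4L2 at SHMT2 (65 counts), both on the opposite strand.

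The enzymes differed in which libraries were high or low. Serum-starved replicate 1 was the lowest of the 6 libraries for PSAT1, MTHFD2, MTHFD1L and ALDH1L2, at log2 deviations from the gene's mean of -1.004, -1.17, -0.38 and -0.83. In the same library PHGDH and SHMT1 stood at 0.27 and SHMT2 at 0.03. Serum-starved replicate 3 showed the opposite, with SHMT2 at -0.60, SHMT1 at -0.25 and PHGDH at -0.23, against 1.29 for ALDH1L2, 0.45 for MTHFD2 and 0.41 for PSAT1. Serum-starved replicate 2 was above the mean for all 9 enzymes and the highest library for 6 of them. How often either held over all genes was not counted. The spread between the highest and the lowest library was wider without serum than with FBS for 8 of the 9, PHGDH being the exception, and for 69.6% of all genes tested.

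Transcript GC content went with these deviations in part. The 5 enzymes below the median GC content of tested genes (50.7%) are ALDH1L2, PSAT1, MTHFD2, MTHFD1 and MTHFD1L, and their median log2 deviation was -0.83 in starved replicate 1 and 0.41 in starved replicate 3. For the 4 above it, PSPH, SHMT1, PHGDH and SHMT2, it was 0.15 and -0.24. PSPH did not share that direction, at -0.16 in starved replicate 1 and 0.46 in starved replicate 3, and AT-rich MTHFD1 was at -0.06 in starved replicate 1. Over all genes, the 3442 genes of lowest GC content had a median deviation of -0.61 in starved replicate 1 and 0.35 in starved replicate 3, and the 3442 of highest GC content 0.43 and -0.36. In FBS replicate 1 these were at 0.58 and -0.27. The 4 GC-rich enzymes were at -0.35 there, while the 5 AT-rich ones were at -0.04 (from -0.54 to 0.27) and did not follow the genes of lowest GC content. The part of GC content in the enzymes' values was not tested. With the GC and length trend of each library removed, the log2 fold change of PHGDH was 0.13 in place of 0.43, that of SHMT1 0.11 in place of 0.38, that of PSAT1 0.53 in place of 0.23 and that of SHMT2 -0.32 in place of -0.11. PSPH was at 0.65 in both fits. With the correction MTHFD1 was lowest in starved replicate 3, at 231 CPM in place of 314. It was then highest in starved replicate 1, at 283 CPM in place of 252. None of the 9 passed with the correction, the smallest edgeR adjusted p being 0.233 for PSPH, while 125 of all genes passed (75 higher and 50 lower), against 39 (33 higher and 6 lower) without it.

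**Figure D3:**
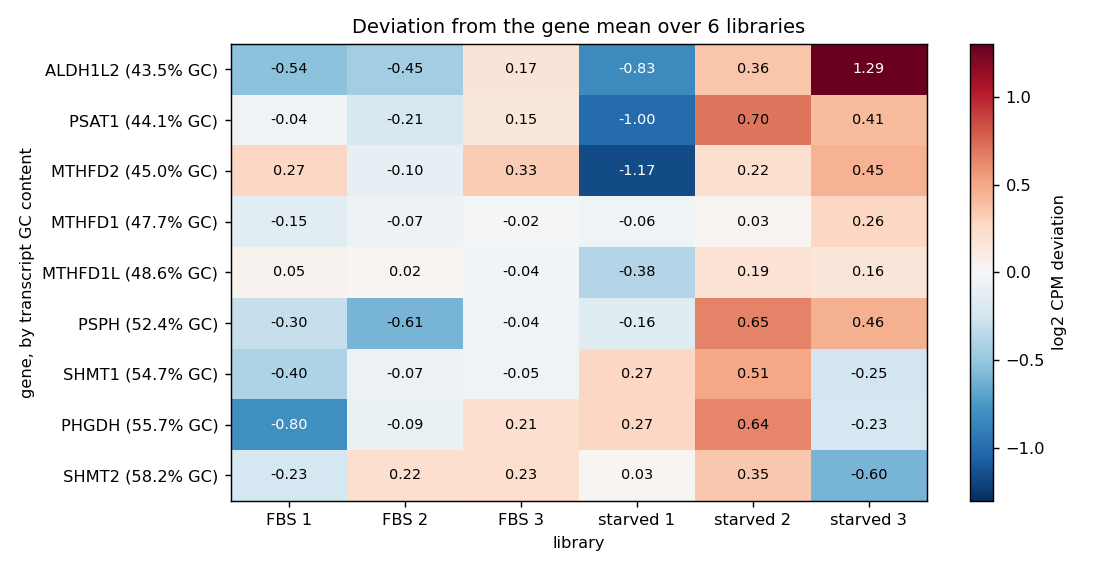
Log2 CPM of each enzyme in each library, as the deviation from that gene's mean over the 6 libraries (colour and printed value), with genes ordered from the lowest transcript GC content at the top to the highest at the bottom. In starved replicate 1 the AT-rich genes at the top reach -1.17 and in starved replicate 3 they reach 1.29, while SHMT1, PHGDH and SHMT2 at the bottom lie between 0.03 and 0.27 and between -0.60 and -0.23. PSPH, above them, goes the other way, at -0.16 and 0.46.

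Within a library, the ratio of 2 enzymes does not depend on how libraries are scaled to each other. These ratios are described without a test. The FPKM ratio of mitochondrial SHMT2 to cytosolic SHMT1 was 6.17, 6.72 and 6.65 in the FBS libraries and 4.61, 4.92 and 4.29 in the serum-starved libraries. All 3 starved libraries lay below all 3 FBS libraries, with a mean of 4.61 ± 0.313 against 6.51 ± 0.300 (SD, n = 3). As CPM, which leaves exon length out, it was 4.10, 4.46 and 4.42 with FBS and 3.07, 3.27 and 2.85 without serum. With the GC and length correction this CPM ratio was 4.25, 4.14 and 4.26 with FBS and 2.79, 3.24 and 3.41 without serum, again apart. A separation of this kind was not rare: of all 13771 other genes tested, 20.7% had a ratio to SHMT1 that did not overlap between the groups, and 12.3% a ratio to SHMT2. Among the 36 pairs of the 9 enzymes, 7 (19.4%) did not overlap, a share near the value for SHMT1 and above that for SHMT2. Such a background was not computed for the other enzymes. Besides SHMT2 to SHMT1 they were PHGDH to SHMT2, PSAT1 to MTHFD2, PSPH to MTHFD2 and PSPH to MTHFD1L, each higher without serum, and PSAT1 to PSPH and MTHFD2 to ALDH1L2, each lower. With the correction 6 pairs did not overlap, of which 5 were among these 7.

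The other 3 ratios overlapped. MTHFD2 to MTHFD1 was 0.966, 0.703 and 0.919 with FBS and 0.333, 0.820 and 0.820 without serum, with only starved replicate 1 outside the FBS range. MTHFD1L to MTHFD1, the mitochondrial and cytosolic enzymes that handle formate, was 0.846, 0.786 and 0.730 with FBS and 0.587, 0.826 and 0.688 without serum. PSAT1 to PHGDH, successive enzymes of serine synthesis, was 1.503, 0.819 and 0.848 with FBS and 0.368, 0.927 and 1.38 without serum, the widest scatter of the 4. With the GC and length correction the FBS libraries of this pair came together, at CPM ratios of 0.203, 0.178 and 0.184, against 0.151, 0.249 and 0.350 without serum.

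**Figure D4:**
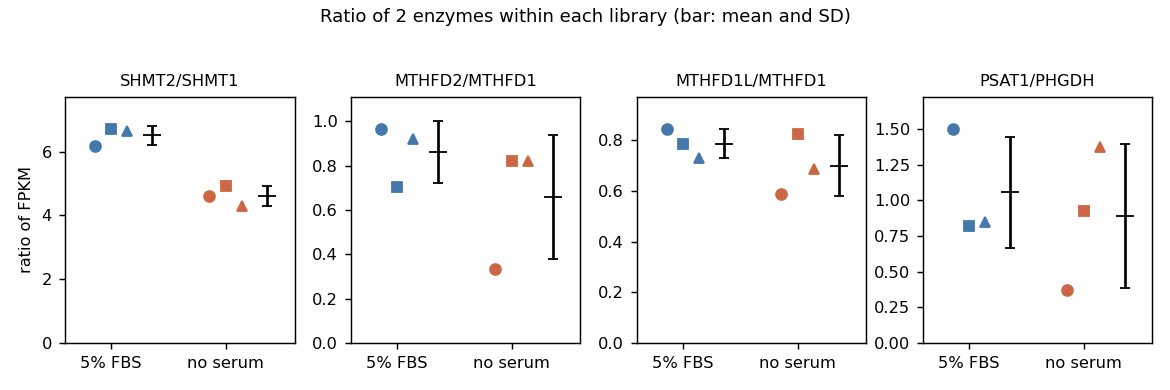
FPKM ratio of 4 pairs of enzymes within each library (y axes from 0), FBS libraries in blue and serum-starved libraries in orange, with the mean and SD of 3 libraries in black. SHMT2 to SHMT1 lies between 6.17 and 6.72 with FBS and between 4.29 and 4.92 without serum, and the other 3 ratios overlap.

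Promoter sequences are shown for PSAT1 and MTHFD2, whose profiles over the 6 libraries were close (root mean square difference 0.26 on the log2 scale) and which had the lowest deviations of the 9 in starved replicate 1, and for SHMT1 as a cytosolic enzyme of the folate pathway. They come from RefSeq (GRCh38.p14), and 6 of the 9 enzymes matched the promoter table used here. Promoters of PSPH, SHMT2 and ALDH1L2 were not analysed here. Each printed sequence is read 5′ to 3′ on the gene's strand, from 250 bases before the start site up to the start site or the first annotated exon base. Capitals mark CCAAT boxes (CCAAT or, on the other strand, ATTGG), the element bound by the factor NF-Y. The regions are chr9:78296875-78297124 (plus strand), chr2:74198365-74198561 (plus strand) and chr17:18363564-18363800 (minus strand).
PSAT1: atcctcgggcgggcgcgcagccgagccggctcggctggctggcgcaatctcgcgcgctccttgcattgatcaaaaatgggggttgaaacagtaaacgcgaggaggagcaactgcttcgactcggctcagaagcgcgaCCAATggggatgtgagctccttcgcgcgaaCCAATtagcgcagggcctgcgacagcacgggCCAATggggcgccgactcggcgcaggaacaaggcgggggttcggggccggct
MTHFD2: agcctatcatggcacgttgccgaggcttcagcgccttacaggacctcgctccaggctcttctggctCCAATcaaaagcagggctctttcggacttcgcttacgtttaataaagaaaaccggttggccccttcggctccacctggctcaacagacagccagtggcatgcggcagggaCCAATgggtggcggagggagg
SHMT1: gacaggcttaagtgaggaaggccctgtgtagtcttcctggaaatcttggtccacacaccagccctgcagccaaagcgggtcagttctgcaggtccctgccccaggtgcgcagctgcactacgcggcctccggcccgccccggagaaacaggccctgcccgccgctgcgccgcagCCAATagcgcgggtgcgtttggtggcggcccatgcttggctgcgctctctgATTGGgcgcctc

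PSAT1 held 3 CCAAT boxes, MTHFD2 2 and SHMT1 2. All 6 enzymes with an entry held at least 1 in the 250 bases before a start site, where 32.0% of 35116 RefSeq promoters did and 32.4% of those of tested genes. These shares count promoters and not genes, and MTHFD1L had no box before its listed start site at 151007008. The boxes of PHGDH and MTHFD1 lie past the first annotated exon base. This motif was picked after the sequences were read. The core of the element through which ATF4 acts with C/EBP factors was searched as TGATGNAA on both strands. It was in 3.14% of all promoters, in 1.61% of those of tested genes and, of the 6 enzymes, in MTHFD1L alone, before 2 of its 4 listed start sites. It lies at 150866357 to 150866364 on chromosome 6, past another listed start site at 150866333 and past the first annotated exon base. The 30 bases around it are shown here because they hold the only such match (capitals, plus strand, chr6:150866346-150866375).
MTHFD1L: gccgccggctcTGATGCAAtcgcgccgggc

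The E-box CACGTG, the element bound by MYC and related factors, was in 6.34% of all promoters, in 8.28% of those of tested genes and in MTHFD1 and MTHFD1L. Matches of the 3 motifs did not overlap one another, and a match describes the sequence only. ATF4 itself was at 407 ± 16.1 CPM (SD, n = 3) in FBS libraries and 421 ± 179 in starved ones (log2 fold change 0.05, edgeR adjusted p = 0.977), and MYC at 142 ± 2.96 and 132 ± 59.5 CPM (-0.11, edgeR adjusted p = 0.937).

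Neighbouring pathways were described by lists chosen by textbook role. Of 15 tested genes of the folate cycle and folate transport, none passed and the median log2 fold change was -0.09. In this list 6 were above 0, against 48.5% of all genes tested. ALDH1L1, the cytosolic counterpart of ALDH1L2, was at 3.08 ± 1.59 and 5.12 ± 1.70 CPM (SD, n = 3; edgeR adjusted p = 0.638). None of the 6 genes of purine synthesis, a main user of folate carbon, passed (median -0.15, 5 below 0). Its amidotransferase PPAT was at 18.7 ± 4.69 and 12.3 ± 5.31 CPM (edgeR adjusted p = 0.591), and ADSL, the adenylosuccinate lyase, at 4.87 ± 0.613 and 3.26 ± 2.07 CPM (0.741). None of 4 tested methionine cycle genes passed (median -0.07), MAT2A, which makes S-adenosylmethionine, being at 180.2 ± 25.8 and 149 ± 14.2 CPM (0.793) and its regulatory subunit MAT2B at 41.0 ± 2.59 and 34.9 ± 15.7 CPM (0.865).

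Among 17 tested genes that carry or use serine and glycine, 1 rose, none fell and 16 did not pass (median 0.27), where 0.24% of all genes tested rose. The gene that rose was SLC1A4, a transporter of serine and other small neutral amino acids, from 16.1, 20.7 and 23.6 CPM with FBS to 39.6, 59.7 and 77.2 CPM without serum. Its log2 fold change was 1.55 (SE 0.32, edgeR adjusted p = 0.0479) and 1.32 with the GC and length correction (0.0305). The call was lost with any 1 FBS library or starved replicate 2 left out, by limma-voom, by limma on FPKM, with library totals alone and without robust estimation. Of 15 tested genes of the amino acid response outside the pathway, none passed. In this list 13 were above 0, against 48.5% of all genes tested, and the median was 0.87. TRIB3, a pseudokinase induced by ATF4, was at 64.7, 53.1 and 61.6 CPM in the FBS libraries and 143, 234 and 111 CPM in the starved ones (a log2 difference of 1.44, SE 0.32, edgeR adjusted p = 0.0689). SESN2, a sensor that restrains mTORC1, was at 41.5 ± 0.666 and 99.7 ± 35.1 CPM (edgeR adjusted p = 0.111). The number of this list that passed was 1 with the GC and length correction (TRIB3), 3 in DESeq2 and 3 with no filter on low counts. It was 3 without starved replicate 1, 2 without starved replicate 3 and 0 with any other library left out. Over all genes the fits with a passing list gene called 125, 154, 127, 65 and 257, in the same order, against 39 in the main fit. The list's median was 0.27 without starved replicate 2 and between 0.76 and 1.20 with any other library left out.

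The genes most like an enzyme in their profile were named by the root mean square difference of centred log2 CPM over the 6 libraries, among 8873 protein-coding genes of at least 5 CPM. For PSPH, the member with the smallest p, they were CTH, the gamma-lyase that makes cysteine from cystathionine, at 0.098, the tetraspanin CD82 at 0.15 and MTARC1, a mitochondrial amidoxime reductase, at 0.15. For MTHFD1L, the member with the largest p, they were NUB1 at 0.032, GLYR1 at 0.051 and FBXL5 at 0.054. Among the enzymes themselves the closest pairs were MTHFD1 and MTHFD1L at 0.18, PHGDH and SHMT1 at 0.20, and PSAT1 and MTHFD2, as well as SHMT1 and SHMT2, at 0.26. The measure is also small for genes that both vary little, whatever the shape of their profiles. MTHFD1 was lowest in FBS replicate 1 (log2 deviation -0.15) and MTHFD1L in starved replicate 1 (-0.38). All these values share the same 6 libraries and their GC trends.

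**Figure D5:**
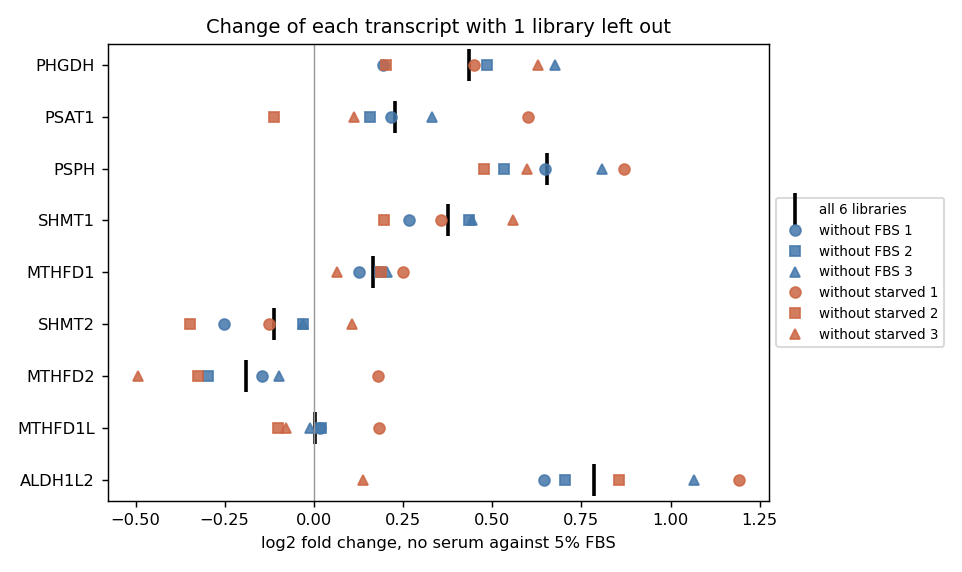
Log2 fold change of each enzyme (x axis, no serum against 5% FBS) in all 6 libraries (black bar) and with 1 library left out (blue for an FBS library, orange for a serum-starved one, symbols for the replicate). PSPH, PHGDH, SHMT1, MTHFD1 and ALDH1L2 stay above 0 in all 6 fits, and PSAT1, SHMT2, MTHFD2 and MTHFD1L lie on both sides of 0.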

How the data were processed

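Total RNA of 6 Ovcar8 libraries was sequenced, and groups and replicate numbers come from the sample titles. The labels' protocols name Trizol, a column cleanup with DNase, a NEBNext Ultra kit and an Illumina NovaSeq. STAR 2.6.1, DESeq2 and GRCh38 are named in the submitters' processing notes without roles, and which tool counted the reads is not given in the sources used here. Per the file headers, the authors deposited raw counts per gene, and FPKM values that equal the count per length over DESeq2 size factors (ratio 1 over 10654 genes). Counts were filtered with edgeR's filterByExpr (minimum count 10, total 15), scaled with TMM and tested two-sided with edgeR 4.0.16 (robust quasi-likelihood fit, R 4.3.3), with Benjamini-Hochberg adjustment over 13772 genes. A standard error is the log2 fold change over the square root of F. GC content is the mean over GENCODE 29 transcripts. For the correction, splines with 5 degrees of freedom in GC content and log length entered as offsets. Alternatives were RLE scaling, totals alone, other filters, DESeq2 1.42.0, limma 3.58.1 (voom, and log2 FPKM plus a pseudocount of 1 or 0.1), no robust estimation, a replicate block, the correction and each library left out. The test was tried on simulated data. The named genes were the 9 enzymes, passing genes of each list or else its 2 smallest p-values, ATF4, MYC and the closest profiles, with overlapping genes over 20 counts. A gene that this rule names is not reported here. The enzymes, lists and alternatives were chosen with earlier results of these data known.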

Additional observations from a re-analysis of the deposited data

How the results depend on the processing

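None of the 9 enzymes passed under any of the 19 other fits or at an adjusted p under 0.01; over these fits the smallest adjusted p of a member was 0.233 (edgeR with the GC and length correction, PSPH), and 153 of 169 values kept their direction. The number of genes passing over all genes, 39, was 25 with library totals alone, 127 without a low-count filter (83 higher and 44 lower), 154 in DESeq2 (114 and 40), 125 with the GC and length correction, 97 with the replicate block and this correction (60 and 37), 2 with limma on log2(FPKM + 1) without a filter, 13 at an adjusted p under 0.01, and 4 to 257 with 1 library left out. The FBS libraries left out in turn gave 4, 14 and 20 and the starved ones 65, 16 and 257, in the order of the replicates, the last with 124 higher and 133 lower. In the fits with limma on log2(FPKM + 1) it was 35 (25 higher and 10 lower) and on log2(FPKM + 0.1) 28 (20 and 8). The causes were not tested. With the replicate block it was 43. The labels give shared replicate numbers and no shared culture or day, same-numbered libraries deviated together at Pearson correlations of -0.26, 0.10 and -0.08 across genes, and the numbers were not taken to pair the libraries; 0 enzymes passed with the block.

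Of the members, MTHFD1 was at -0.031 with the GC and length correction and at -0.034 with the block added. MTHFD1L was at -0.0072 without a low-count filter, -0.02 in limma-voom, -0.019 with the replicate block, -0.11 with the block and correction, -0.10 with the correction, and -0.018, -0.020 and -0.018 in the 3 FPKM fits. Leaving out each library gave -0.11 to 0.60 for PSAT1, -0.35 to 0.11 for SHMT2, -0.49 to 0.18 for MTHFD2 and -0.10 to 0.18 for MTHFD1L. ALDH1L2 was below the FPKM minimum of 0.5, so it has no value in the 2 filtered FPKM fits. Its counts of 26 to 182 limit its precision; the other enzymes held at least 314 counts in every library.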
